A study of Homo sapiens with 3 samples.

Results

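The genes described here are 9 human genes that answer to the coactivator YAP or to transforming growth factor beta (TGF-beta), or that carry those signals: CCN1, CCN2, ANKRD1, ANKRD2, AMOTL2, THBS1, TGFB1, TGFB2 and SMAD7. They were chosen by name, with earlier results of these data known. Every probe whose RefSeq accession maps to one of them was taken. This gave 10 probes among the 58201 of the array and 9 of the 22435 genes with a symbol. THBS1 had 2 probes and each of the others had 1, all printed as a single spot, so for 8 genes no second probe could be set beside the first. The cells were A549, an established human lung adenocarcinoma line. They were kept for 48 h with 0.1% DMSO as the vehicle control, with cordycepin at 60 μg/mL, an adenosine analog that Cordyceps fungi make, or with 100 μg/mL cordyceps, a preparation that the labels do not describe further. The labels do not say whether the treated cultures also held DMSO. According to the labels, the medium of all 3 cultures was DMEM with serum and antibiotics and also contained nicotinamide, troglitazone and zinc sulfate, whereas the methods of the study name serum and antibiotics alone. RNA of each culture went to 1 Agilent array (n = 1 per condition), so each difference below compares 1 array with another, and neither a replicate error nor a p-value can be had. The labels name Cy3 for every array and the files hold 1 channel each, while the methods name Cy5 for the cordycepin RNA.

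YAP and its relative TAZ (encoded by WWTR1) are coactivators that enter the nucleus when the Hippo kinases are inactive and bind DNA through the TEAD factors. TGF-beta is secreted in a latent form, is released at the matrix, and acts through receptor kinases that phosphorylate SMAD2 and SMAD3. The pathways meet at matricellular genes, above all CCN2 and THBS1, and in the lung epithelium both are known for their roles in repair and fibrosis.

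The sequences before the start of 4 of these genes are shown because CCN2 and ANKRD1 hold several copies of the TEAD core motif and were both higher with cordycepin, because ANKRD2 had the largest measured ratio with cordycepin and holds no copy, and because TGFB2 holds 1 copy on the opposite strand and differed in opposite directions on the treated arrays. They are the 250 bases before the annotated start, from RefSeq on build GRCh38.p14, 5′ to 3′ on the strand of the gene, with the TEAD core (GGAATG, or CATTCC for a match on the opposite strand) in capitals. They come from chr6:131951373-131951622 (minus strand) for CCN2, chr10:90921088-90921337 (minus strand) for ANKRD1, chr10:97572191-97572440 (plus strand) for the first listed start of ANKRD2 and chr1:218345086-218345335 (plus strand) for TGFB2.
CCN2: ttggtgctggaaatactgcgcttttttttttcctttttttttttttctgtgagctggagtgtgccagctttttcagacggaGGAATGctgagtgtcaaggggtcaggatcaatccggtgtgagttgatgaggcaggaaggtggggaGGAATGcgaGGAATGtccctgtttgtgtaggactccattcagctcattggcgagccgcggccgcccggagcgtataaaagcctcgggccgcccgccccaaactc
ANKRD1: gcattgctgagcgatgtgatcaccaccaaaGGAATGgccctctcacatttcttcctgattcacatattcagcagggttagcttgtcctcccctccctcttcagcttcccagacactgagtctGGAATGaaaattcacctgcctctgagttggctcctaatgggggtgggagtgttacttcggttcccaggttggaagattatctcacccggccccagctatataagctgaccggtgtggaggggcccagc
ANKRD2: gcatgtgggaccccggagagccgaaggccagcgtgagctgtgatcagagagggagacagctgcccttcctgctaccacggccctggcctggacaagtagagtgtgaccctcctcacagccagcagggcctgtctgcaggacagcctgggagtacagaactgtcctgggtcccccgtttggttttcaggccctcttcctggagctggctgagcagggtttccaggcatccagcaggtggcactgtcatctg
TGFB2: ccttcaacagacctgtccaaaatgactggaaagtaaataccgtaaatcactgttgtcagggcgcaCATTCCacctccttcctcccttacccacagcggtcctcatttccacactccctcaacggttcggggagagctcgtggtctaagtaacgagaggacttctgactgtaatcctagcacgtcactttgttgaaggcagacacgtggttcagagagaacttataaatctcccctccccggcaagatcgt

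Windows of this kind were matched for 8 of the 9 genes, all but CCN1, and made 12 windows in all because ANKRD2, AMOTL2 and SMAD7 have several annotated starts. The TEAD core stood in the windows of 5 genes, namely CCN2, ANKRD1, AMOTL2, THBS1 and TGFB2, and in 5 of the 12 windows, compared with 11.9% of the 34788 different windows in the table. CCN2 held 3 copies, which 0.0834% of all windows reach, with their farthest bases 169, 104 and 95 bases before the start. ANKRD1 held 2 copies, 220 and 128 bases before the start, and 0.946% of all windows hold 2 or more. The CAGA box (CAGACA), a SMAD motif, was found for ANKRD1, ANKRD2, AMOTL2 and TGFB2, and in 13.6% of all windows. The windows of ANKRD2 overlap and share the same site. The shares over all windows are per window and not per gene, and a gene with several starts has several windows. The AP-1 site was searched in a loose form (TGANTCA, any base at N). It was found for ANKRD1 alone among the 8 genes, where it reads tgattca, and in 6.59% of all windows. The CArG box, the SRF motif, was found for 0 of the 8 genes and in 1.17% of all windows. Both strands were searched, and no match of one motif overlapped a match of another in these windows. A match describes the letters of the window and is no evidence that a factor binds there, and several of these genes are on the list because they are known YAP targets.

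**Figure D1:**
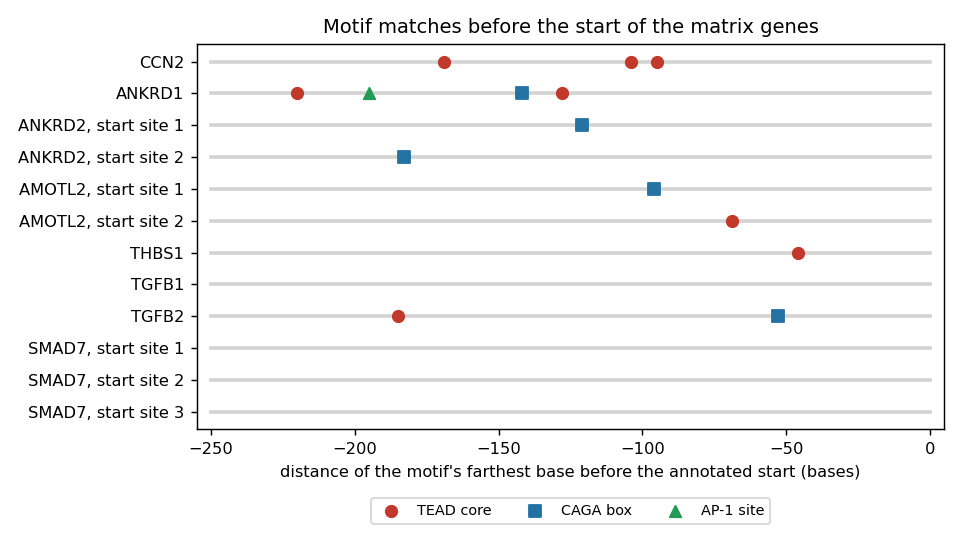
Matches of the TEAD core (circles), the CAGA box (squares) and the AP-1 site (triangle) in the 250 bases before each annotated start (grey lines), with the distance of the motif's farthest base before the start in bases on the horizontal axis. CCN2 shows 3 TEAD cores and ANKRD1 2, while TGFB1 and the 3 windows of SMAD7 show no match.

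Before the results, the arrays are described in brief. The authors deposited spot intensities that the scanner software had background-subtracted but not scaled between arrays. The log2 signal was reduced here by the 75th percentile of each array, which corresponded to signals of 260.1, 224 and 260.2 on the control, cordycepin and cordyceps arrays. A probe counted as measured where the software marked it well above background, and the dimmest such probe had a signal of 18.6, 21.8 and 34.5 on these arrays. The error printed beside a signal is the software's own estimate for that spot. A call means a difference of at least 2-fold, or a bound of that size where 1 of the arrays did not measure the probe. Over genes with at least 2 measured probes, single probes scattered with a robust SD (from the median absolute deviation) of 0.26 (log2 ratio) with cordycepin and 0.20 with cordyceps, which describes spread between probes and not between cultures. The plain SD, which discordant probes widen, was 0.37 and 0.35. All 5 epithelial markers looked up (KRT8, KRT18, KRT19, EPCAM and CDH1) were well above background on every array. Of 11 markers of fibroblasts, endothelium and leukocytes with a probe, 4 were well above background on at least 1 array (COL1A1, VWF, CDH5 and PTPRC), and their summed signal over all 11 was 586, 487 and 438 on the control, cordycepin and cordyceps arrays. In bulk RNA, fewer cells that express a gene and less RNA per cell cannot be told apart.

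A corner of the array, with rows above 240 of 384 and columns above 82 of 164, is marked because its spots stood apart with cordyceps. There, 11.2% of the corner's spots had an outlying local background with cordyceps, and 0 had one with vehicle or cordycepin. Outside the corner the shares were 2.38% with vehicle, 0.47% with cordycepin and 3.16% with cordyceps. With cordyceps, 14.6% of the measured probes in the corner were called higher, compared with 2.80% outside it. With cordycepin the shares were 6.27% and 7.26%. The probes of ANKRD2 and AMOTL2 lie in the corner, and the other 8 probes lie outside it.

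**Figure D2:**
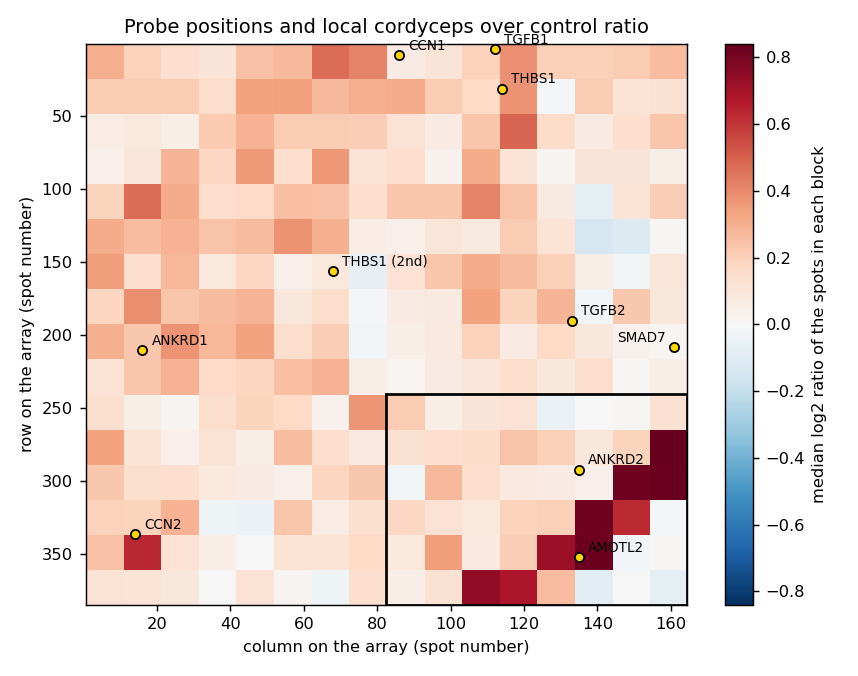
Position of the 10 probes (yellow points) on the array by spot column and row, over the median log2 ratio of cordyceps over control of all non-control spots in each of 256 blocks (colour). The blocks run from -0.14 to 0.84, the darkest red ones form a band in the marked corner (black box), and the AMOTL2 probe lies on that band.

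With cordycepin, several genes of the list had higher signals than with vehicle. CCN1, CCN2, ANKRD1 and ANKRD2 were called higher, so that 4 of the 9 genes were higher and 0 were lower. Over all 15917 genes measured on at least 1 of these arrays, 5.95% were called higher and 3.57% lower. The 9 genes were chosen with earlier results of these data known, so their counts beside these shares are a description only. The median log2 ratio of the 9 genes was 0.67, with ANKRD1 at its bound, compared with -0.051 over the 14600 genes measured on both arrays. With cordyceps, 0 of the 9 genes were called higher and 1, TGFB2, was called lower, against 4.19% and 3.15% of 15602 genes. The median log2 ratio over the 8 genes with a value was -0.34, with CCN2 at its bound, compared with -0.11 over 13889 genes. Both treatments are set against the same control array, so the control's own error enters both columns of ratios. The doses differ in amount and cordyceps is not a defined compound, and the values are therefore given side by side.

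**Figure D3:**
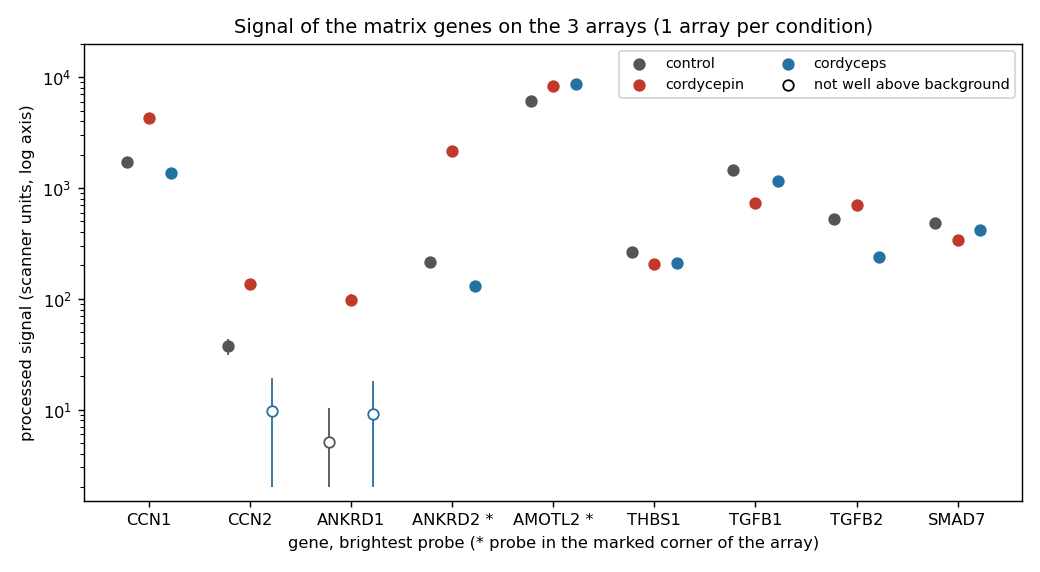
Processed signal (scanner units, log axis) of the brightest probe of each of the 9 genes on the control, cordycepin and cordyceps arrays, 1 array each, unscaled, with the software's error of the spot as bars (cut at 2 where they reach lower) and open points where the probe was not well above background. CCN1, CCN2, ANKRD1 and ANKRD2 are brightest on the cordycepin array, and CCN2 and ANKRD1 are open on the cordyceps array.

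CCN1, formerly CYR61, encodes a secreted matricellular protein that binds integrins and is a standard readout of YAP activity. Its signal was 1725 ± 173 with vehicle, 4314 ± 431 with cordycepin and 1357 ± 136 with cordyceps. The cordycepin array was thus the high one, and the other arrays lay close together. After scaling, CCN1 was 2.90-fold higher with cordycepin, a log2 ratio of 1.54 that 1.41% of the genes measured on both arrays reached or passed. With cordyceps the log2 ratio was -0.35, which 26.9% of genes reached or passed in that direction.

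CCN2, formerly CTGF, encodes a related matricellular protein and is induced by YAP and by TGF-beta. Its signal was 37.4 ± 6.39 with vehicle and 137 ± 15.0 with cordycepin. With cordyceps it was not well above background, at 9.61 ± 9.64. CCN2 was 4.24-fold higher with cordycepin, a log2 ratio of 2.09 that 0.507% of genes reached or passed. With normexp background correction, which added an offset of 50 to every signal, the ratio was 1.07, still past 2-fold. With cordyceps the dim signal gave only a bound, at least 1.09-fold lower, since the dimmest measured probe of that array, at 34.5, was almost as bright as CCN2 with vehicle. Taken at its own dim signal, the ratio would be -1.96 on the log2 scale, and this value lies below the measurable range of the cordyceps array.

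ANKRD1 and ANKRD2 encode ankyrin repeat proteins first known from stretched heart and skeletal muscle, and ANKRD1 is one of the most used YAP targets. ANKRD1 was not well above background with vehicle, at 5.14 ± 5.15, nor with cordyceps, at 9.02 ± 9.05. With cordycepin its signal was 98.3 ± 11.4. It was therefore the only one of the 9 genes measured on a single array, and it was at least 6.11-fold higher with cordycepin, a bound of 2.61 on the log2 scale. The bound rests on the floor taken for the control array, the lowest signal well above background, and on the background correction: with normexp the value was 1.28, and with detection by a positive and significant signal it was 4.47. No ratio is given with cordyceps.

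ANKRD2 showed the largest measured ratio of the list. Its signal was 214 ± 21.9 with vehicle, 2146 ± 215 with cordycepin and 130 ± 15.3 with cordyceps. With cordycepin it was 11.6-fold higher, a log2 ratio of 3.54, and 6 of the 14600 genes measured on both arrays, itself included, were that high. Its probe lies in the marked corner, where 0 spots had an outlying local background with vehicle or cordycepin, and the median log2 ratio with cordycepin of the 423 spots around it was 0.25. With cordyceps its log2 ratio was -0.72, while the spots around it had a median of 0.048. Without the genes in the corner, 3 of 7 genes were called higher and 0 lower with cordycepin, beside 6.1% and 3.52% of the 13011 genes outside it. With cordyceps 0 of these 7 were called higher and 1 lower, beside 2.66% and 3.15% of 12619 genes.

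**Figure D4:**
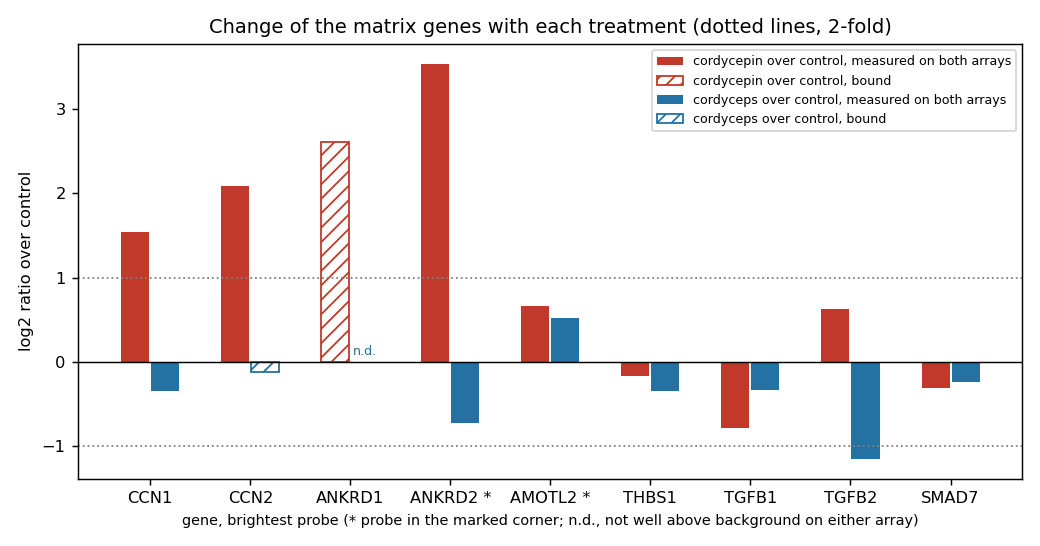
Log2 ratio of cordycepin over control (red) and of cordyceps over control (blue) for the brightest probe of each gene, with hatched open bars for bounds, n.d. where neither array measured the probe and dotted lines at 2-fold. The 4 genes at the left stand above the upper line with cordycepin, and TGFB2 alone passes the lower line, with cordyceps.

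AMOTL2 encodes an angiomotin family protein that binds YAP and holds it in the cytoplasm, and it is itself a YAP target. It was the brightest probe of the set, with 6080 ± 608 with vehicle, 8321 ± 832 with cordycepin and 8736 ± 874 with cordyceps. Both treated arrays were above the control array, by 1.59-fold with cordycepin and 1.44-fold with cordyceps, and neither difference was called. The 424 spots around the AMOTL2 probe had a median log2 ratio of 0.83 with cordyceps, above the 0.52 of AMOTL2 itself, and after their median was subtracted the ratio was -0.30. The part of the surrounding spots in the value of AMOTL2 was not tested.

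THBS1 encodes thrombospondin 1, a matrix glycoprotein that can activate latent TGF-beta. Its brightest probe gave 266 ± 27.0 with vehicle, 205 ± 21.1 with cordycepin and 210 ± 22.6 with cordyceps. The log2 ratios were -0.17 and -0.34, and neither was called. The second probe was dim, at 33.9 ± 5.19 with vehicle and 33.2 ± 5.52 with cordycepin, and it was not well above background with cordyceps, at 23.7 ± 7.43. Its log2 ratio with cordycepin was 0.19, so the 2 probes of THBS1 differed in sign there. No ratio is given for it with cordyceps.

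Of the ligands, TGFB1 and TGFB2 differed from each other in direction with cordycepin. TGFB1, the most studied isoform, gave 1470 ± 147 with vehicle, 735 ± 73.7 with cordycepin and 1170 ± 117 with cordyceps. It was 1.72-fold lower with cordycepin, a log2 ratio of -0.79, and 1.26-fold lower with cordyceps. Neither was called at 2-fold, although the cordycepin ratio became -1.05 with median scaling and -1.17 when the median of the neighbouring spots was subtracted. The spot had an outlying local background on the control and cordyceps arrays. TGFB2, a second isoform that binds the same receptors, gave 526 ± 52.8 with vehicle, 701 ± 70.3 with cordycepin and 237 ± 25 with cordyceps. The cordyceps array was the low one, and TGFB2 was 2.22-fold lower there, a log2 ratio of -1.15 that 1.63% of genes reached or passed downward. The call was lost with median scaling (-0.88) and with normexp background correction (-0.87). With cordycepin TGFB2 was 1.55-fold higher and not called.

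SMAD7 encodes the inhibitory SMAD that TGF-beta induces and that blocks its receptors. Its signal was 488 ± 49.0 with vehicle, 339 ± 34.4 with cordycepin and 415 ± 42.5 with cordyceps. The log2 ratios were -0.31 and -0.23, within the range of most genes, since 25.8% and 36.7% of genes lay as low or lower. With median scaling the cordyceps ratio of SMAD7 turned to 0.038.

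The same pathways were described with 6 lists that hold 97 other genes, of which AJUBA, LATS2 and PTPN14 stand in 2 lists each. The Hippo kinases, YAP, TAZ and the TEAD factors gave 1 gene called higher and 1 called lower with cordycepin among 24 genes measured, with a median log2 ratio of 0.059, beside 5.95% higher and 3.57% lower over all genes. With cordyceps the counts were 0 and 2, with a median of -0.19, beside 4.19% and 3.15%. The 21 genes of this list outside the corner gave the same counts, beside 2.66% and 3.15% of the 12619 genes there. Counts this small say nothing particular about any of the 6 lists. YAP1 itself had log2 ratios of -0.11 with cordycepin and -0.28 with cordyceps. TEAD1, its DNA-binding partner, had 0.054 and -0.36. WWTR1, which encodes TAZ, gave signals of 926 with vehicle, 974 with cordycepin and 446 with cordyceps, and was called lower with cordyceps, 2.08-fold. Its log2 ratio there, -1.06, lay nearer to the threshold than the 0.27 by which median scaling shifted the median of all genes. AJUBA, a LIM protein that restrains the LATS kinases, was 2.57-fold higher with cordycepin and had a log2 ratio of 0.61 with cordyceps. AMOT, the angiomotin that gives AMOTL2 its family name, gave 110 with vehicle and was not well above background on either treated array. It was at least 4.33-fold lower with cordycepin and at least 3.18-fold lower with cordyceps, and a second AMOT probe was not measured on any array.

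Of the other YAP and TAZ targets, 18 of 20 were measured, and with cordycepin 1 was called higher, AJUBA, and 1 was called lower, near the 5.95% and 3.57% over all genes, with a median log2 ratio of 0.24. The lower one was NT5E, the ecto-nucleotidase CD73 that makes adenosine outside the cell, with signals of 633, 147 and 385, or 3.71-fold lower with cordycepin. Its other probe, in the corner, had a log2 ratio of -1.79 with cordycepin. AXL, a receptor tyrosine kinase, had log2 ratios of 0.42 and -0.26 with cordycepin and cordyceps, and F3, tissue factor, had 0.48 and 0.37. With cordyceps, GADD45A, a stress gene, was the only one of these genes called higher, by 2.53-fold; its log2 ratio with cordycepin was 0.94, close to the threshold. The median with cordyceps was -0.12, and the shares over all genes were 4.19% higher and 3.15% lower. Outside the corner these shares were 2.66% and 3.15%.

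On the TGF-beta side, the receptors and latency proteins gave 2 genes called higher and 1 lower with cordycepin among 14, beside 5.95% and 3.57% over all genes, with a median log2 ratio of -0.30. ACVRL1, the receptor ALK1, was 3.73-fold higher, with signals of 53.5, 172 and 40.8 on the control, cordycepin and cordyceps arrays. ITGB8, an integrin subunit that helps to release active TGF-beta, was 3.07-fold higher with cordycepin and 2.09-fold higher with cordyceps. LTBP2, a latent TGF-beta binding protein family member, was 2.68-fold lower with cordycepin and at least 2.49-fold lower with cordyceps. Its signals were dim, 85.8, 27.6 and 31.3, the last not well above background. The dimmest measured probe of the cordycepin array had 21.8. TGFBR2, the ligand-binding receptor, was bright, with signals of 9379, 4198 and 7098, and was 1.93-fold lower with cordycepin, just inside the threshold. TGFBR1 had log2 ratios of -0.48 and -0.064. TGFBR3, the coreceptor betaglycan, had a log2 ratio of -0.69 with cordycepin and was at least 3.13-fold lower with cordyceps. Of the 13 genes measured with cordyceps, 1 was called higher and 2 were called lower. The shares were 4.19% and 3.15% over all genes, and 2.66% and 3.15% outside the corner. The median over the 12 genes with a value was -0.15.

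Among SMAD transducers and inhibitors, 11 of 13 were measured, and with cordycepin 0 were called higher and 1 was called lower, beside 5.95% and 3.57% over all genes. The lower one was PMEPA1, a TGF-beta target that binds SMAD2 and SMAD3 and dampens the pathway. Its signals were 14603, 2692 and 17227 on the control, cordycepin and cordyceps arrays, or 4.68-fold lower with cordycepin, and its second probe gave a log2 ratio of -1.45. With cordyceps the PMEPA1 probes gave 0.24 and 0.30. SMAD2, SMAD3 and SMAD4 had log2 ratios of 0.15, 0.71 and -0.40 with cordycepin and of 0.32, -0.38 and -0.36 with cordyceps; the brightest probes of SMAD3 and SMAD4 lie in the corner. The second SMAD4 probe, outside it, had -0.19 with cordycepin and 0.31 with cordyceps, so the SMAD4 probes differed in sign with cordyceps. No gene of this list was called with cordyceps, where the median was -0.069.

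Other TGF-beta targets, 17 of 21 of them measured, gave 1 gene called higher and 3 called lower with cordycepin, beside 5.95% and 3.57% over all genes, with a median log2 ratio of -0.28. CDKN1A, the cell cycle inhibitor p21 and also a p53 target, was 3.03-fold higher, and its log2 ratio with cordyceps was 0.92. FN1, fibronectin, was 2.26-fold lower with cordycepin, with a log2 ratio of -0.29 with cordyceps. ID2 and ID3, inhibitors of basic helix-loop-helix factors that BMP signals induce, were 2.39-fold and 2.26-fold lower with cordycepin. With cordyceps ID2 was 2.01-fold lower, just past the threshold, and ID3 had a log2 ratio of -0.95; ID2 was the only gene of this list called with cordyceps, where the median was -0.21 and 3.15% of all genes were called lower. TGM2, a transglutaminase that crosslinks matrix proteins and is named here after its values were seen, had probes that disagreed with cordycepin. Its brightest probe had a log2 ratio of -0.15, with signals of 1598 with vehicle and 1246 with cordycepin, while its second probe had 2.49, with 392.1 and 1905. TGFBI, a matrix protein with signals of 144119, 78273 and 118347, had log2 ratios of -0.67 with cordycepin and -0.28 with cordyceps, and its probe lies in the corner.

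Within the CCN and thrombospondin families, CCN1 and CCN2 were the only members called with cordycepin. Of the 8 relatives in the list, 4 were measured with cordycepin, where 0 were called, and 3 with cordyceps, where 1 was called lower, beside 3.15% of all genes. CCN5, which lacks the C-terminal domain of the other CCN proteins, gave signals of 4184, 5246 and 1908. It was 2.19-fold lower with cordyceps and had a log2 ratio of 0.54 with cordycepin. The cordyceps log2 ratio, -1.13, lay nearer to the threshold than the 0.27 shift of median scaling. The remaining measured relatives were not called with either treatment. CCN3 came close to the threshold with cordyceps, at a log2 ratio of 0.93, with signals of 208 with vehicle and 397 with cordyceps.

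**Figure D5:**
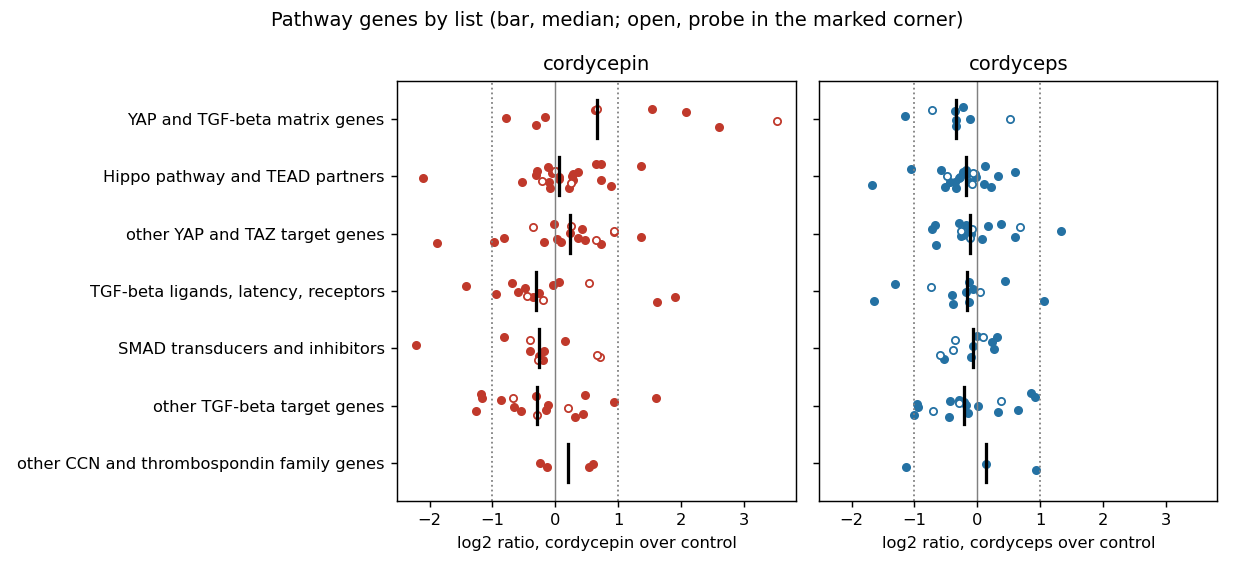
Log2 ratio over control of each measured gene of the 9 matrix genes and of the 6 pathway lists with cordycepin (left) and cordyceps (right), bounds included, with open points for probes in the marked corner, black bars for medians and dotted lines at 2-fold. The medians of the lists lie between -0.34 and 0.67, and the matrix genes with cordycepin have the highest one.

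Genes outside the list with the most similar pair of ratios were named by Euclidean distance on the log2 scale over the 2 treatments, among 11241 genes measured on all 3 arrays outside the corner. For CCN1 they were KCNQ1OT1, LRG1 and SNORA74B, at distances of 0.048 to 0.068, and 24 genes lay within 0.25. For CCN2 none are named, since it was not measured with cordyceps. For THBS1 they were QSER1, ATP5MGL and C8orf58, but 1832 genes lay within 0.25 of it, so these 3 stand little apart from many others. A pair of ratios from 3 arrays is a description of these arrays alone.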

How the data were processed

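RNA from 3 cultures of A549 cells was measured on 3 Agilent arrays, 1 per condition. The authors deposited the scanner files of Agilent Feature Extraction 11.5.1.1, with intensity values on a linear scale that were background-subtracted and spatially detrended within each array. The deposited value table of the series holds the same intensity values, unscaled: at least 58169 of 58201 probes lay within 1% of the mean processed signal, with column medians of 20.3, 21.1 and 16.9. The methods name GeneSpringGX for normalization and give no setting.

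Here log2 of the processed signal was scaled by subtracting, for each array, the 75th percentile of all probes other than controls. Spots flagged as outliers were left out (63 to 106 per array), and 0 spots were saturated. A probe was measured where the software marked 50% or more of its spots well above background (28501 probes with vehicle, 27674 with cordycepin and 24513 with cordyceps). Where 1 array did not measure a probe, a bound was computed, in which the dim value was replaced by the lowest value well above background on its array unless it was itself higher. A gene was given by its brightest probe. Accessions without versions were matched to the RefSeq transcripts of GRCh38.p14, which named 31104 probes. The array was designed on another build, so no probe positions in the genome are given.

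The members, lists, motifs and alternatives were chosen with earlier results of these data known. The genes named from the lists are those called outside the corner and a set of transducers and targets named whatever their values, 1 of which is not reported here. With 1 array per condition no test was run, and precision is limited by the number of arrays. The calling step was tried on simulated arrays with large changes in bright probes and noise below the robust single-probe SD. Bounds, changes in dim probes and changes near 2-fold were not simulated, so the trial says nothing about such calls. Alternatives tried were scaling by the median or by the 75th percentile of probes measured on every array, quantile normalization, no scaling, normexp with an offset of 50 (on the median spot signal), outlier spots kept, the value table, the median over a gene's probes, the corner left out, subtraction of the median of spots within 10 rows and columns, 2 other rules of detection, and thresholds of 1.5-fold and 3-fold. Python 3.11.15 with numpy 2.4.6 and pandas 2.3.3 and R 4.3.3 with limma 3.58.1 were used.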

Additional observations from a re-analysis of the deposited data

How the results depend on the processing

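The count of 4 genes called higher with cordycepin held under the alternatives but 4. It was 6 at 1.5-fold, which adds AMOTL2 and TGFB2, and 3 under each of these: leaving out the corner, which removes ANKRD2, detection on both arrays, which removes ANKRD1, and the 3-fold threshold, which CCN1 misses. The count of genes called lower with cordycepin was 0, but 1 with median scaling, with the neighbouring spots subtracted and at 1.5-fold, in each case TGFB1. The count called lower with cordyceps was 1, but 0 with median scaling, normexp and the 3-fold threshold, and 2 with detection by a positive and significant signal, which adds CCN2, and at 1.5-fold, which adds ANKRD2. The count called higher with cordyceps was 0 under each alternative. The median log2 ratio of the genes moved to 0.40 with cordycepin and to -0.072 with cordyceps under median scaling, and by less than the robust single-probe SD otherwise. Median scaling shifted the median of all genes by -0.26 with cordycepin and by 0.27 with cordyceps, and no scaling shifted it by -0.21 with cordycepin. The array medians were 20.3, 21.1 and 16.9 on the control, cordycepin and cordyceps arrays. The dimmest measured probes had 18.6, 21.8 and 34.5, so median scaling aligned the arrays near or below the measurable range. The log2 ratio with cordycepin ranged from 1.27 to 1.61 for CCN1, from 1.07 to 2.13 for CCN2, from 1.28 to 4.47 for ANKRD1 and from 3.09 to 3.58 for ANKRD2. The lowest values of CCN2, ANKRD1 and ANKRD2 came from normexp, which added an offset of 50 to every signal. Their processed signals with vehicle were 37.4, 5.14 and 214, so the offset exceeded those of CCN2 and ANKRD1. The part of the offset in the lower values was not tested. Of 182 values of single genes under the alternatives, 151 moved by less than the robust single-probe SD, and 0 called ratios changed sign, while the uncalled ratios of AMOTL2 with cordyceps (-0.30 less its neighbours), THBS1 with cordycepin (0.010 over both probes) and SMAD7 with cordyceps (0.038 with median scaling) did. No paired analysis was possible because each condition has 1 array. Signal over background limits CCN2 and the second THBS1 probe on the cordyceps array, and ANKRD1 on both the control and the cordyceps array.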
